A study of Mus musculus with 24 samples.

Results

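The proximal T cell receptor signalling genes comprised the CD3 chains Cd3d, Cd3e and Cd3g, the zeta chain Cd247, the kinases Lck and Zap70, the adaptors Lat and Lcp2, and the phospholipase Plcg1. They were named as the genes acting directly at the receptor, and each was matched to the table by Ensembl identifier. All 9 genes were found among the 17464 genes of the table, and all 9 were among the 16630 genes tested. Bulk RNA-seq was performed on 3 Treg subsets sorted from the spleens of wild-type C57BL/6JRccHsd mice. Resting Treg (rTreg) cells were labelled CD62L+ CD44-, activated Treg (aTreg) cells CD62L- CD44+, and kTreg cells by the surface receptor KLRG1. Each subset was taken from 4 mice aged 2 months, called young, and 4 mice aged 26 months, called old, giving 24 libraries in 6 groups of 4, and the labels name no treatment. Groups are compared below to ask whether the first steps of receptor signalling are transcribed differently in kTreg cells, and whether this changes with age.

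The T cell receptor has no signalling domain of its own, and the CD3 and zeta chains that accompany it carry the tyrosine motifs phosphorylated by the kinase LCK. ZAP70 then binds these motifs and phosphorylates the adaptors LAT and LCP2, which together hold and activate phospholipase C gamma, the enzyme that starts calcium release and RAS signalling. Treg cells depend on this receptor for their development in the thymus and for their suppressive programme in the periphery.

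The values are reads per gene divided by 1 size factor per library, called normalized units here, and a library held between 15045747 and 29521942 reads on the listed genes. Each member had at least 1892 reads in every library, so counting error was small beside the spread between mice. Klrg1, the gene of the sorting receptor, lay between 16559 and 41561 units in every kTreg library, and its highest value in any rTreg or aTreg library was 357. Foxp3, which defines Treg cells, was detected in every library, and its lowest value was 5079 units, in the old aTreg library of mouse 2. The young kTreg library of mouse 4 stood apart by its 4913 genes listed at 0. Summed over 38 marker genes of other blood cells, the level lay between 22752 and 64833 units in old rTreg libraries and between 2009 and 7836 in old aTreg and kTreg libraries. This sum leaves out Ighm, the immunoglobulin mu chain, which alone lay between 21778 and 79259 units over the 24 libraries. In young libraries it lay between 2528 and 39972 units, with the highest value of each young group in mouse 2. Results that rest on these libraries are given below without them where this changes a test. In bulk samples, fewer cells of a type and less RNA per cell cannot be told apart.

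Differences in the members between subsets were small. Lck and Lat were lower in kTreg cells than in either other subset, Cd3e and Lcp2 were higher in aTreg and kTreg cells than in rTreg cells, and Zap70 was lowest in young rTreg cells. The tests used limma across all genes, with young and old mice weighted equally, and a gene passed at a Benjamini-Hochberg adjusted p below 0.05. Between kTreg and aTreg cells 2 of the 9 members passed, both lower, against 12.1% of all genes tested that passed in either direction and 6.0% that were lower. Between kTreg and rTreg cells 4 passed, of which 2 were higher and 2 lower, against 22.8% of all genes, made up of 12.5% higher and 10.3% lower. Between aTreg and rTreg cells 2 passed, both higher, against 10.5% of all genes and 6.61% that were higher. The differences of Lat, and those of Cd3e and Lcp2 between kTreg and rTreg cells, did not pass without certain single libraries, as given below. The 3 comparisons share libraries, so they are not independent of each other. When a fold change above 1.5 was also required, 0 members were called by limma, edgeR or DESeq2 in any of these comparisons, against 7.39%, 15.5% and 8.01% of all genes. Without adjustment, 3, 4 and 4 members had a p below 0.05. The median log2 difference of the members was −0.15 between kTreg and aTreg cells, 0.10 between kTreg and rTreg cells and 0.09 between aTreg and rTreg cells, beside −0.08, −0.01 and 0.06 over all genes tested. The 95% interval of the difference stayed within 1.5-fold for 8, 8 and 9 members respectively, and Lat was the member outside.

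**Figure D1:**
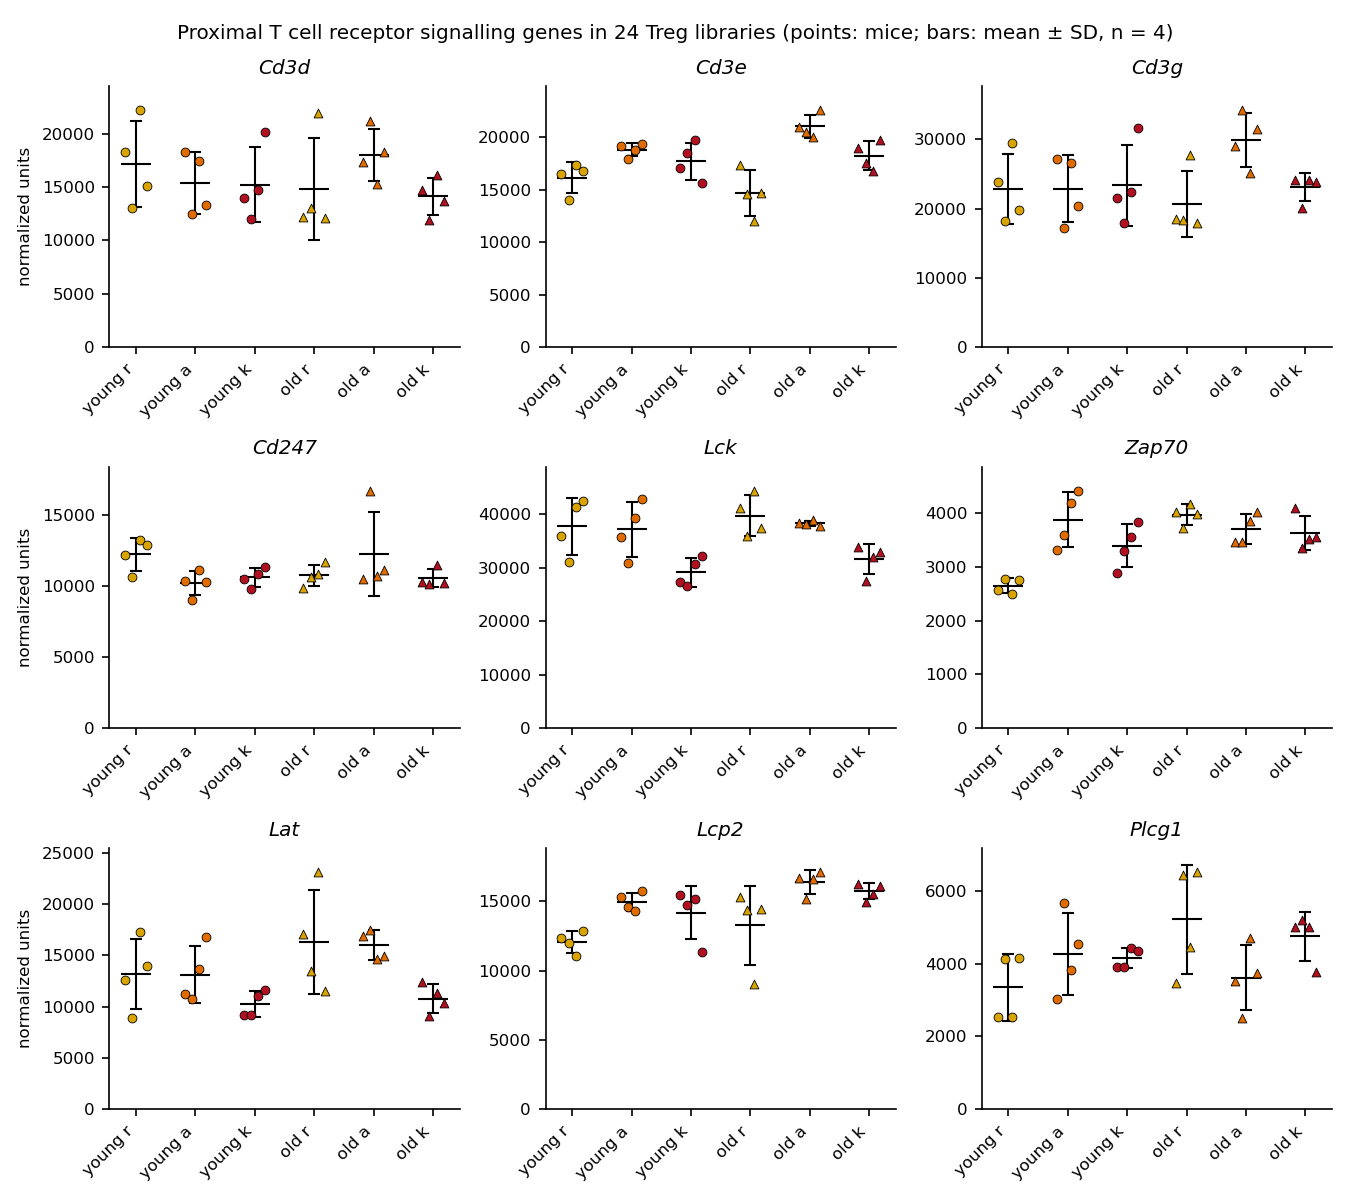
Normalized units of the 9 genes (y axis, from 0) in the 6 groups (x axis), with 1 point for each mouse (circles young, triangles old) and bars for the mean ± SD of 4 mice. Lck and Lat sit lower in kTreg cells at both ages, and Zap70 sits lower in young rTreg cells than in the other groups.

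**Figure D2:**
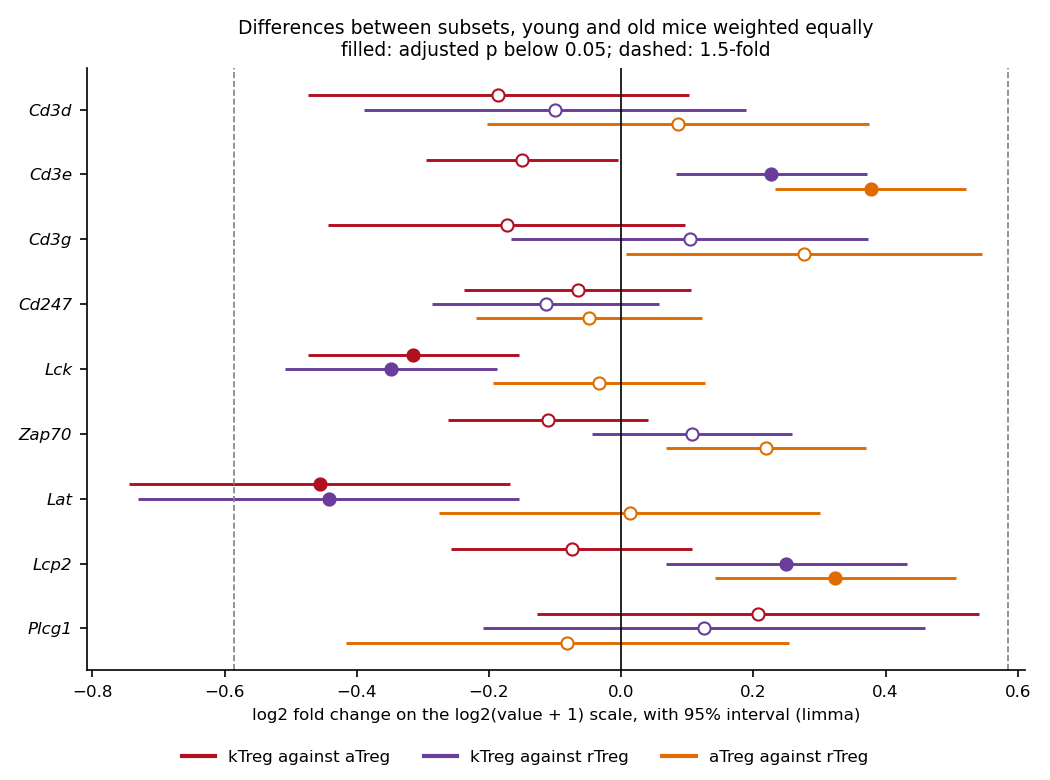
Log2 fold changes between subsets (x axis) of the 9 genes (y axis) with 95% intervals from limma, filled where the adjusted p was below 0.05, and dashed lines at 1.5-fold. Only the intervals of Lat cross a dashed line.

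The members differed more among themselves in level than between groups. Per kilobase of exon, averaged over the 24 libraries, Lck was highest at 11307 units, followed by Cd3g at 7261 and Cd3d at 6099. Lat and Cd3e were close to each other at 4683 and 4358 units per kilobase, and their order turned when the longest transcript was used as the length. Lcp2 had 3142, Cd247 1887, Zap70 993 and Plcg1 472 units per kilobase. For each gene, the library with the highest value was between 1.68 times (Lck) and 2.61 times (Plcg1) the lowest. The median of this ratio was 2.31 over the 4785 genes with a mean of at least 1000 units, and 7 of the 9 members were below it.

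Among the CD3 and zeta chains, Cd3e was the one that passed between subsets over both ages. Cd3e encodes CD3 epsilon, which pairs with both the gamma and the delta chain. In young mice 1 to 4, Cd3e was at 16556, 14008, 17381 and 16764 units in rTreg cells, 19187, 17949, 18838 and 19348 in aTreg cells, and 17040, 18489, 19712 and 15622 in kTreg cells. In old mice 1 to 4, it was at 17366, 14627, 12021 and 14672 units in rTreg cells, 20954, 20549, 20050 and 22641 in aTreg cells, and 18960, 17524, 16761 and 19778 in kTreg cells. All 8 aTreg libraries were above all 8 rTreg libraries, whereas kTreg libraries overlapped with both. Cd3e rose from rTreg to aTreg cells by 0.38 ± 0.07 (SE) on the log2 scale, a fold of 1.30, in 8 of 8 mice (limma, adjusted p = 8.8e-04). The difference was 0.53 in old mice (adjusted p = 0.0013) and 0.22 in young mice (adjusted p = 0.30, limma), and the age groups were not shown to differ (adjusted p of the interaction = 0.28). From rTreg to kTreg cells Cd3e rose by 0.23 ± 0.07, in 7 of 8 mice (limma, adjusted p = 0.021). Without the 3 libraries of young mouse 2 this last difference was 0.18 (adjusted p = 0.092), and without the young kTreg library of mouse 3 it was 0.20 (adjusted p = 0.051, limma). The rise in aTreg cells passed without mouse 2 as well (adjusted p = 0.0040, limma). 2 genes of other classes overlap Cd3e on the genome, 1 of them antisense, and the strand setting of the counting was not given in the sources used here.

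Cd3d, Cd3g and Cd247 did not pass between subsets over both ages. Cd3d, which encodes CD3 delta, lay between 11928 and 22229 units, and its log2 difference between kTreg and aTreg cells was −0.19 with a 95% interval from −0.47 to 0.10. Cd3g, which encodes CD3 gamma, lay between 17252 and 34261 units. In old mice Cd3g was at 18539, 18376, 27777 and 17962 units in rTreg cells and at 29026, 34261, 25071 and 31425 in aTreg cells, and the groups overlapped through the rTreg library of mouse 3. This difference of 0.55 ± 0.18 on the log2 scale missed the threshold (limma, adjusted p = 0.060), and it passed with the mouse as a block (adjusted p = 0.047). Cd247, the zeta chain with most of the receptor's tyrosine motifs, lay between 9044 and 13227 units in 23 libraries and at 16707 in the old aTreg library of mouse 2, the library with the lowest Foxp3. Its log2 difference between kTreg and aTreg cells was −0.07, with an interval from −0.24 to 0.11.

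Lck, the kinase that phosphorylates the CD3 and zeta chains, was lower in kTreg cells. In young mice 1 to 4 it was at 35917, 31057, 41371 and 42460 units in rTreg cells, 35718, 30857, 39314 and 42818 in aTreg cells, and 27272, 26473, 30654 and 32076 in kTreg cells. In old mice 1 to 4 it was at 41146, 35865, 44343 and 37453 units in rTreg cells, 38375, 38184, 38885 and 37722 in aTreg cells, and 33920, 27454, 32005 and 32922 in kTreg cells. In every mouse the kTreg library was the lowest of the 3, and in old mice all 4 kTreg libraries were below all 8 others. In young mice the groups overlapped, because mouse 2 was low in all 3 subsets. Lck fell by 0.31 ± 0.08 (SE) on the log2 scale from aTreg to kTreg cells, a fold of 1.24 (limma, adjusted p = 0.0089). From rTreg to kTreg cells it fell by 0.35 ± 0.08, a fold of 1.27 (limma, adjusted p = 0.0020). Both differences passed whichever library was left out (limma, highest adjusted p = 0.025 and 0.0061). Within young mice alone the difference between kTreg and aTreg cells was −0.35 (limma, adjusted p = 0.051, or 0.034 with the mouse as a block). Within old mice the difference between kTreg and rTreg cells was −0.33 (limma, adjusted p = 0.056, or 0.038 with the block). Lck did not differ detectably between aTreg and rTreg cells, at −0.03 with an interval from −0.19 to 0.13.

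Zap70, the kinase recruited to the phosphorylated zeta chain, followed another pattern. In young mice 1 to 4 it was at 2561, 2780, 2494 and 2762 units in rTreg cells, 3320, 3597, 4177 and 4413 in aTreg cells, and 2882, 3301, 3544 and 3835 in kTreg cells. In old mice 1 to 4 it was at 4023, 3712, 4171 and 3975 units in rTreg cells, 3467, 3452, 3859 and 4021 in aTreg cells, and 4092, 3347, 3518 and 3546 in kTreg cells. The 4 young rTreg libraries were below the other 20, which overlapped with each other. In young mice Zap70 rose from rTreg to aTreg cells by 0.54 ± 0.10 on the log2 scale, a fold of 1.46 (limma, adjusted p = 0.0027), and from rTreg to kTreg cells by 0.35 ± 0.10 (limma, adjusted p = 0.020), in 4 of 4 mice each. The latter was lost without the young rTreg library of mouse 1 or 3 or the young kTreg library of mouse 3 or 4, with 0.29 (limma, adjusted p = 0.063) without young kTreg of mouse 4 and a highest adjusted p of 0.067. In old mice the same differences were −0.10 (adjusted p = 0.60) and −0.13 (adjusted p = 0.46, limma). Between kTreg and aTreg cells over both ages it was −0.11, with an interval from −0.26 to 0.04. Over both ages the difference between aTreg and rTreg cells was 0.22 (limma, adjusted p = 0.060, or 0.044 with the mouse as a block).

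Lat, the membrane adaptor on which the signalling complex assembles, was lower in kTreg cells, with a wider spread between mice than Lck. In young mice 1 to 4 it was at 12635, 8931, 17229 and 13964 units in rTreg cells, 11229, 10703, 13712 and 16808 in aTreg cells, and 9161, 9187, 11058 and 11648 in kTreg cells. In old mice 1 to 4 it was at 17066, 13456, 23148 and 11544 units in rTreg cells, 16930, 17505, 14642 and 14894 in aTreg cells, and 12415, 9051, 11342 and 10352 in kTreg cells. The kTreg library was below the aTreg library in 8 of 8 mice, and these 2 groups overlapped in young but not in old mice. Lat fell by 0.46 ± 0.14 (SE) on the log2 scale from aTreg to kTreg cells, a fold of 1.37 (limma, adjusted p = 0.034). From rTreg to kTreg cells it fell by 0.44 ± 0.14, in 7 of 8 mice (limma, adjusted p = 0.024). The first test was lost without the young aTreg library of mouse 3 or 4, the young kTreg library of mouse 1 or 2, the old aTreg library of mouse 1 or 2 or the old kTreg library of mouse 2 or 4 (limma, highest adjusted p = 0.079, difference −0.42 without old kTreg of mouse 2). The second was lost without the rTreg library of young mouse 3 (−0.37, adjusted p = 0.063), the rTreg library of old mouse 3 (−0.35, adjusted p = 0.057) or the kTreg library of old mouse 2 (−0.40, adjusted p = 0.055, limma).

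Lcp2, the cytosolic adaptor that joins LAT to phospholipase C gamma, was lowest in rTreg cells. In young mice 1 to 4 it was at 12351, 11983, 11020 and 12858 units in rTreg cells, 15335, 14576, 14310 and 15710 in aTreg cells, and 15450, 14763, 15197 and 11351 in kTreg cells. In old mice 1 to 4 it was at 15291, 14342, 9051 and 14451 units in rTreg cells, 16718, 15175, 16625 and 17135 in aTreg cells, and 16259, 14971, 15538 and 16137 in kTreg cells. The young aTreg libraries were all above the young rTreg libraries, whereas in old mice the groups overlapped slightly. Lcp2 rose from rTreg to aTreg cells by 0.32 ± 0.09 on the log2 scale, a fold of 1.25, in 8 of 8 mice (limma, adjusted p = 0.018), and passed whichever library was left out. From rTreg to kTreg cells it rose by 0.25 ± 0.09, in 7 of 8 mice (limma, adjusted p = 0.044), which was lost when any of 17 single libraries was left out. It was 0.16 without the old rTreg library of mouse 3 (adjusted p = 0.067), and the highest adjusted p was 0.091 without the young rTreg library of mouse 3 (limma). Lcp2 overlaps a protein-coding gene on the opposite strand, 4930469K13Rik. Cd247 and Plcg1 also each overlap a protein-coding gene on the opposite strand, Pou2f1 and Zhx3.

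Plcg1, the phospholipase, had the widest spread of the 9 genes, between 2499 and 6521 units, and passed in no comparison. Its log2 difference between kTreg and aTreg cells was 0.21, with an interval from −0.13 to 0.54. Its largest difference between groups of a comparison was that of old against young rTreg cells, at 0.64 ± 0.23 (limma, adjusted p = 0.095). In young mice 1 to 4 it was at 2539, 4136, 2538 and 4160 units in rTreg cells, and in old mice 1 to 4 at 3472, 6419, 4453 and 6521. Both groups split into a lower and a higher pair, and they overlapped.

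With age, Zap70 in rTreg cells was the single member that passed. It rose in old rTreg cells by 0.58 ± 0.10 on the log2 scale (limma, adjusted p = 0.0010), a fold of 1.499, just under the threshold of 1.5, and all 4 old libraries were above all 4 young ones. Without the libraries of young mouse 2 the difference was 0.61 (limma, adjusted p = 0.0027). Against this 1 of 9 members, 6.7% of all genes tested passed between old and young rTreg cells. The share that passed higher was 4.54%, and 5.83% were past the fold as well. In aTreg and kTreg cells 0 members passed by limma, edgeR or DESeq2, against 3.05% and 1.32% of all genes, and 1 and 0 members had an unadjusted p below 0.05. The Zap70 differences there were −0.06 (interval −0.28 to 0.15) and 0.10 (interval −0.11 to 0.31). The change from rTreg to aTreg cells differed between the ages for Zap70 by −0.64 ± 0.15 (limma, adjusted p = 0.028), against 1.56% of all genes called. In the interactions of age with the other 2 subset differences 0 members were called by limma, edgeR or DESeq2, against 0.156% (kTreg and aTreg) and 3.02% (kTreg and rTreg) of all genes, and 0 and 1 members had an unadjusted p below 0.05. For kTreg against rTreg cells the Zap70 interaction was −0.48 ± 0.15 and missed the threshold (limma, adjusted p = 0.075). By DESeq2, 1 member passed in that interaction without reaching the fold. The Zap70 interaction of age with aTreg against rTreg cells was lost when any of 6 single libraries was left out. These were young rTreg of mice 1 and 3, young aTreg of mice 3 and 4, and old aTreg of mice 1 and 2. The highest adjusted p was 0.073 (limma). Old rTreg libraries carried more transcripts of other cells than the young rTreg libraries except mouse 2, as given above. Basophil and mast cell markers summed to between 2524 and 6119 units in old and between 52.1 and 140 in young rTreg libraries, and monocyte and macrophage markers to between 10486 and 27381 and between 569 and 8141 units. Markers of NK cells, a lineage that also uses ZAP70, summed to between 389 and 1198 units in old and between 108 and 284 in young rTreg libraries, and plasma cell markers to between 3170 and 9383 and between 62.7 and 1284 units. Those of CD8 T cells, which use ZAP70 as well, were lower in old rTreg libraries, between 295 and 554 units against between 566 and 2185. Of 11 marker lists of other cells, 5 were higher in all old than in all young rTreg libraries (the 4 given and platelets), 1 was lower (CD8 T cells) and 5 overlapped. In the B cell and dendritic cell lists, 1 marker each was at 0 in all old rTreg libraries. No other marker counted was at 0 in all libraries of either group. The part of these cells in the Zap70 difference was not tested.

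**Figure D3:**
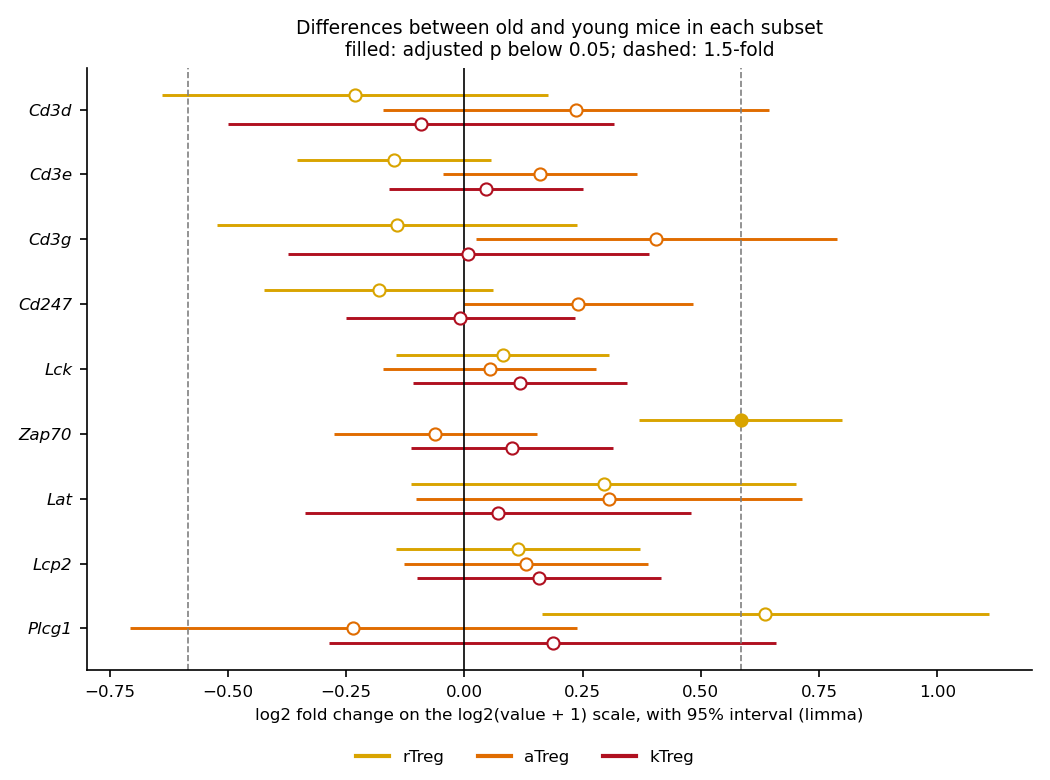
Log2 fold changes of old against young mice (x axis) in the 3 subsets for the 9 genes (y axis), with 95% intervals from limma and filled where the adjusted p was below 0.05. The point of Zap70 in rTreg cells, at 0.58, is the only filled one and lies on the 1.5-fold line.

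Some members moved together from mouse to mouse within groups. After removal of the group means, log2 values of Cd3d and Cd3g correlated with r = 0.97 over the 24 libraries, those of Lck and Lat with r = 0.86 and those of Cd3e and Lcp2 with r = 0.70. Cd3d and Lcp2 moved in opposite directions, with r = −0.72. These values describe libraries that share mice, preparation and scaling. Members also moved with a property of the library as a whole, the length index, which is the median log2 deviation of 1667 genes with a longest transcript of at least 5000 bases minus that of 218 genes of at most 1500 bases. The index ranged from −0.78 to 0.49, and low values mean that short transcripts took more of the reads. The old rTreg library of mouse 3 had the lowest index, and that group's highest Cd3d and lowest Lcp2. Deviations from the group means correlated with the index at r = −0.94 for Cd3d, −0.93 for Cd3g, −0.57 for Cd247, −0.55 for Lat and −0.40 for Lck, and at 0.75 for Lcp2 and 0.62 for Plcg1. For Cd3e and Zap70 the correlations were 0.36 and 0.03. Median indices were −0.26 in young rTreg cells, 0.12 in young aTreg, 0.23 in young kTreg, 0.21 in old rTreg, −0.09 in old aTreg and 0.24 in old kTreg cells, so the index also differed between the groups compared.

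**Figure D4:**
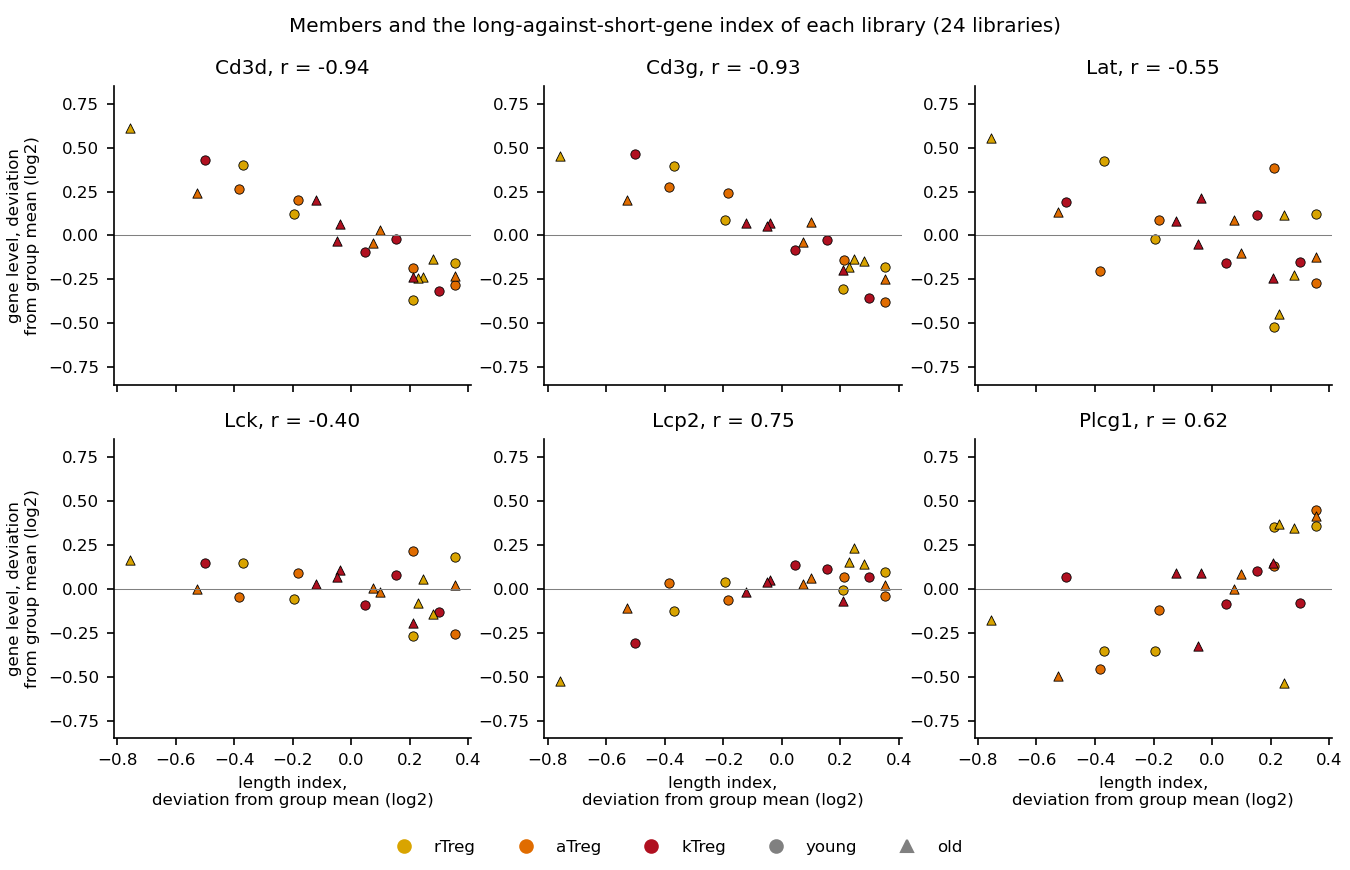
Deviation of the log2 level from the group mean (y axis) against the deviation of the length index from its group mean (x axis) for 6 members in 24 libraries, coloured by subset and shaped by age. Cd3d and Cd3g fall along a line with r = −0.94 and −0.93, whereas Lck is spread more widely with r = −0.40.

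With the length index as a covariate, an alternative added after the data were seen, Lck in kTreg cells remained lower than in aTreg cells (−0.27, adjusted p = 0.014) and in rTreg cells (−0.29, adjusted p = 0.0092, limma). The rise of Cd3e in aTreg cells (0.36, adjusted p = 5.2e-04), that of Lcp2 in aTreg cells (0.28, adjusted p = 0.0030) and that of Zap70 with age in rTreg cells (0.58, adjusted p = 8.8e-04) also passed (limma). The differences of Lat no longer passed, at −0.35 (adjusted p = 0.068) against aTreg and −0.28 (adjusted p = 0.13) against rTreg cells (limma). Cd3e (0.18, adjusted p = 0.070) and Lcp2 (0.12, adjusted p = 0.22) in kTreg against rTreg cells did not pass either (limma). Cd3g passed in this fit, at 0.36 in both aTreg (adjusted p = 1.2e-04) and kTreg cells (adjusted p = 1.3e-04) against rTreg cells (limma). Cd3d also passed, at 0.17 in aTreg and 0.18 in kTreg cells against rTreg cells (limma, adjusted p = 0.032 each).

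Cd3d and Cd3g are neighbours on the genome and point away from each other. Cd3d lies on chr9:44893083-44899173 on the plus strand of GRCm39 and Cd3g on chr9:44880870-44891735 on the minus strand, with 1347 bases between them. Cd3e lies beyond Cd3d on chr9:44910037-44920925 on the minus strand. Lck lies on chr4:129442137-129467434 and Lat on chr7:125962996-125968810, both on the minus strand. The 250 bases before the start of the canonical transcript are printed for these 2 pairs, the pairs with the closest correlation, 5′ to 3′ along the gene, with capitals for the ETS core GGAAGT and the RUNX core TGTGGT on either strand. They were read from the GRCm39 genome at chr9:44892833-44893082 on the plus strand, chr9:44891736-44891985 on the minus strand, chr4:129467435-129467684 on the minus strand and chr7:125968811-125969060 on the minus strand.
Cd3d: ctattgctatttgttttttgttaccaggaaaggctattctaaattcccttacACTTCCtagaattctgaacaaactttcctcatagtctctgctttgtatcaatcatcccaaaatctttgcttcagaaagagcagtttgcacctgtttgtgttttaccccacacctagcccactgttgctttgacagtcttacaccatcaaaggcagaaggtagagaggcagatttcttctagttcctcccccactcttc
Cd3g: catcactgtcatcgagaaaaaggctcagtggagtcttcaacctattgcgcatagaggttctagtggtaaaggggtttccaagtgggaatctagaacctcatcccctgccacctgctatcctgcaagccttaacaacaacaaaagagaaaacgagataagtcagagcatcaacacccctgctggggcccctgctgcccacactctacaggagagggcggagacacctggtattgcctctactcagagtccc
Lck: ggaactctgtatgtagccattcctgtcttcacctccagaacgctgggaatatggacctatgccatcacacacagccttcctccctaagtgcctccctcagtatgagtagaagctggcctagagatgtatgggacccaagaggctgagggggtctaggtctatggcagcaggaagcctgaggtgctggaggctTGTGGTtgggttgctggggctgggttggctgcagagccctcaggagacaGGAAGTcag
Lat: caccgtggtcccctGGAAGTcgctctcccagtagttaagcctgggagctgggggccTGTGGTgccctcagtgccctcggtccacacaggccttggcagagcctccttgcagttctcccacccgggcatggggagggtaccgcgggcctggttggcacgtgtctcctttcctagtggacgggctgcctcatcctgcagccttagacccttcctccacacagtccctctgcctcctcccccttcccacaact
The window of Lck and that of Lat each held 1 ETS core and 1 RUNX core, that of Cd3d held 1 ETS core and that of Cd3g held neither. Of 17352 windows of the same length before listed genes, 20.4% held the ETS core and 13.6% the RUNX core. The 2 motifs do not overlap in these windows, and a TATA box (TATAAA), present in 9.44% of all windows, was in none of the 4. A match is a description of the letters only.

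Other genes of the pathway were set beside the members, and the lists were not tested against each other. Of 58 such genes, 8 passed higher and 11 lower in kTreg than in aTreg cells, against 12.1% of all genes tested in either direction. Between kTreg and rTreg cells 14 passed higher and 9 lower, against 22.8% of all genes, and between aTreg and rTreg cells 11 passed higher and 4 lower, against 10.5%. Their median log2 differences were −0.03, 0.05 and 0.01 in these comparisons. The constant regions of the receptor beta chain, Trbc1 and Trbc2, were lower in kTreg than in aTreg cells by 0.54 ± 0.12 and 0.52 ± 0.11 on the log2 scale (limma, adjusted p = 0.0047 and 0.0040), whereas that of the alpha chain, Trac, differed by −0.02. Against rTreg cells, Trac was higher in aTreg (0.37) and kTreg cells (0.35), in 8 of 8 mice each (limma, adjusted p = 0.0078 and 0.0057). Trbc1 (−0.62) and Trbc2 (−0.58) were lower in kTreg than in rTreg cells (limma, adjusted p = 6.4e-04 and 6.2e-04). These beta-chain genes are near-identical, so reads may be divided between them. Among the coreceptors, Cd28, which gives the costimulatory signal, fell by 0.63 ± 0.10 from aTreg to kTreg cells in 8 of 8 mice (limma, adjusted p = 1.3e-04), and Cd4 and Cd2 differed by −0.05 and 0.23 without passing. Cd28 was higher in aTreg than in rTreg cells by 0.40 (limma, adjusted p = 0.0072). Between kTreg and rTreg cells Cd28 differed by −0.23 without passing (limma, adjusted p = 0.087).

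Among the kinases, Txk, a TEC-family kinase, fell by 1.53 ± 0.40 on the log2 scale from aTreg to kTreg cells (limma, adjusted p = 0.013). Its relative Tec was higher in kTreg than in aTreg cells by 0.91 ± 0.22 (limma, adjusted p = 0.0078). Tec was lower in aTreg than in rTreg cells (−0.69, limma, adjusted p = 0.048). Against rTreg cells, 0 of 5 kinases passed higher in kTreg cells and 2 lower, against 22.8% of all genes tested in either direction. The 2 lower were Txk (−2.07) and Prkcq (−0.61), with adjusted p = 5.3e-04 and 1.6e-04 (limma). Among 11 adaptors and exchange factors, Grap2 (−0.68), which binds both LAT and LCP2, and Themis (−0.65) were called lower in kTreg than in aTreg cells. The transmembrane adaptor Trat1 was also called over both ages (−0.62), but it was lower in 5 of 8 mice and higher in 3. Its difference was −1.36 in old mice (limma, adjusted p = 0.010) and 0.12 in young mice (limma, adjusted p = 0.83), with means of 7821 units in old and 2281 in young aTreg cells. Themis was lower in 8 of 8 mice, with −0.92 in old (limma, adjusted p = 0.043) and −0.38 in young mice (limma, adjusted p = 0.36). Grap2 was also lower than in rTreg cells by 0.95. Among 20 phosphatases and negative regulators 4 passed higher and 2 lower between kTreg and aTreg cells, against 12.1% of all genes tested in either direction. Of these genes 0 were past the fold as well. Against rTreg cells, kTreg cells had higher Sla (0.81) and Sla2 (0.62), adaptors that promote loss of the receptor from the surface, and higher Dok1 (0.91), whereas Dgka, a kinase that consumes the lipid product of PLCG1, was lower (−0.75). Lax1 (0.63) and the phosphatase gene Ptpn22 (0.65) were called higher in aTreg than in rTreg cells. Among 16 genes of steps after Lat and Plcg1, Malt1, the protease of the signalling complex to NF-κB, was higher in kTreg cells than in aTreg (0.59) and rTreg cells (1.38), and Nfatc1 (0.66) and Nfatc2 (0.67) were higher than in rTreg cells. Malt1 (0.80) and Nfatc1 (0.61) were also called higher in aTreg than in rTreg cells (limma, adjusted p = 0.0014 and 0.029). With age, 4 of the 58 genes passed higher and 2 lower in rTreg cells, 3 higher and 1 lower in aTreg cells, and 0 in kTreg cells by limma, against 6.7%, 3.05% and 1.32% of all genes tested in either direction. Trat1 (1.62) and Themis (1.36) rose and Dgkz (−0.73) fell in old aTreg cells, and Dok1 (1.15) rose in old rTreg cells.

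**Figure D5:**
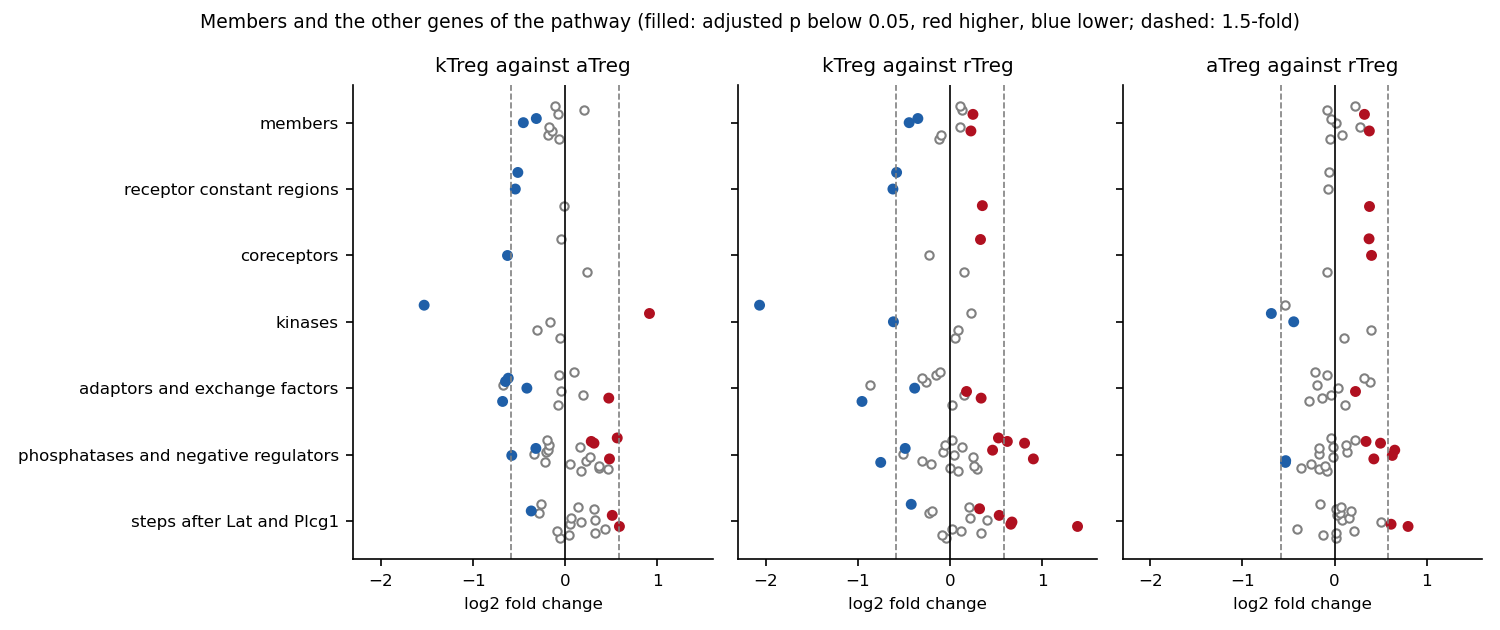
Log2 fold changes (x axis) of the 9 members and of 58 other genes of the pathway grouped by role (y axis) in the 3 subset comparisons, filled red (higher) or blue (lower) where the limma adjusted p was below 0.05, with dashed lines at 1.5-fold. No filled member lies outside the dashed lines, whereas Txk, at −1.53 and −2.07, lies farthest left in both comparisons of kTreg cells.

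A list of 8 counterparts that serve other lineages was set beside the members. Between kTreg and aTreg cells 3 passed, all higher, against 12.1% of all genes tested, and 5 of the 8 differences were above 0. Between kTreg and rTreg cells 1 passed, against 22.8% of all genes, and 2 of the 8 differences were above 0. The 1 that passed was Lyn, higher in kTreg cells by 2.68 (limma, adjusted p = 7.8e-04). Tyrobp, Lat2 and Lyn, used by myeloid, mast or B cells, were higher in kTreg than in aTreg cells by 2.39, 1.96 and 2.91 on the log2 scale, in 8 of 8 mice each (limma, adjusted p = 0.010, 0.0065 and 9.2e-04). Between aTreg and rTreg cells 2 passed, both lower, against 10.5% of all genes, and 0 of the 8 differences were above 0. These were Tyrobp (−3.98) and Syk (−3.77), in 8 of 8 mice each (limma, adjusted p = 1.1e-04 and 0.033). Mean Tyrobp was 66 units in aTreg, 302 in kTreg and 1190 in rTreg cells. Between old and young rTreg cells 2 passed, against 6.7% of all genes tested. These were Lat2 and Tyrobp, higher by 3.71 and 3.36 (limma, adjusted p = 9.6e-04 and 0.018). The sum of the 38 markers of other cells lay between 2009 and 3982 units in old aTreg and between 6217 and 7836 in old kTreg libraries. In young mice the groups overlapped, with between 2528 and 16028 units in aTreg and between 3609 and 30862 in kTreg libraries. In rTreg cells it lay between 22752 and 64833 units in old and between 3251 and 39972 in young libraries. Its part in these differences was not tested.

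The genes most alike to each member in log2 level over the 24 libraries, as a description, had Pearson correlations between 0.77 and 0.96. Cd3d was closest to Med28 (0.96), Coa3 (0.95) and Srp14 (0.95), and Cd3g to Ppp1r11 (0.94), Med28 (0.93) and Tbrg1 (0.92). Cd3e was closest to F2rl2 (0.91), Traf3ip2 (0.84) and Clcc1 (0.83), and Cd247 to Gng5 (0.82), Snapc5 (0.81) and Fkbp1a (0.81). Lck was closest to Fkbp4 (0.85), Uckl1 (0.82) and Ilkap (0.81), and Zap70 to Tbx21 (0.78), Sccpdh (0.77) and Sdc1 (0.77). Lat was closest to Cdk2ap2 (0.83), Cope (0.82) and Psmb10 (0.80), Lcp2 to Gm5491 (0.94), Cldn12 (0.91) and 9530068E07Rik (0.91), and Plcg1 to Tln1 (0.90), Nup205 (0.88) and Dpp8 (0.88). These libraries share mice, depth and length index.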

How the data were processed

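RNA was taken from FACS-sorted cells and its polyA fraction was turned into amplified full-length cDNA by SMART-Seq v4, without molecular identifiers. Per the labels and the methods, paired-end reads of 150 bases were aligned by the authors to GRCm39 with HISAT2 2.2.1, sorted with SAMtools 1.13, counted with HTSeq 1.99.2 and analysed with DESeq2 1.44.0. The deposited signal is normalized: a gene's reads over the library's single size factor, listed where the reads sum to 100 or more. The annotation release and strand setting are not given in the sources used here. All columns were mapped to a sample (0 left over). Whole reads were recovered in every library within 0.001 reads (in 2 libraries 1 read is worth nearly 1 unit). Reads on listed genes ranged from 15045747 to 29521942, and errors are those between mice.

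limma 3.58.1 (R 4.3.3) with trend, in a model of 6 groups, took log2(value + 1) of the 16630 genes that reached 10 units in 4 or more libraries, which understates fold changes of low genes. Symbols and positions came from GENCODE M39 (17353 genes). Genes were called at an adjusted p below 0.05 and a fold above 1.5. Replicate numbers pair the subsets, since the design text states that they came from the same mice. Deviations from the group means correlated between libraries of a mouse with medians of 0.15 (rTreg and aTreg), 0.12 (aTreg and kTreg) and 0.091 (rTreg and kTreg), against −0.033, −0.051 and −0.034 between mice. edgeR 4.0.16 and DESeq2 1.42.0 on recovered reads were alternatives. Fits were tested on simulated data. Tables were made with Python 3.11.15 and pandas 2.3.3, and plots with matplotlib 3.10.9. Pathway genes named are up to 4 of each list called with the smallest p in a comparison, all receptor constant regions and coreceptors, and for each member the 3 genes most correlated with it. Members and lists were chosen with earlier results of these data known.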

Additional observations from a re-analysis of the deposited data

Results flagged for a closer look

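In 8 of 54 groups of 4 libraries a single library lay far from the other 3 (Dixon's test at 95%). Chance gives about 1 in 20 for independent groups. These 54 groups reuse the same libraries for genes that moved together, so they are not independent and the count cannot be set against that share. In old rTreg cells mouse 3 was highest for Cd3d (21924 units, others between 12101 and 13064) and for Cd3g (27777, others between 17962 and 18539), and lowest for Lcp2 (9051, others between 14342 and 15291). The same library had the lowest length index, −0.78. Its part in these values was not tested separately. In old kTreg cells mouse 2 was lowest for Cd3g (20028 units, others between 23890 and 24190), mouse 3 highest for Cd247 (11498, others between 10167 and 10316) and mouse 4 lowest for Plcg1 (3760, others between 5007 and 5205). Cd247 was highest in the old aTreg library of mouse 2 (16707 units, others between 10507 and 11142), which also had the lowest Foxp3. Lcp2 was lowest in the young kTreg library of mouse 4 (11351 units, others between 14763 and 15450), which also listed 4913 genes at 0.

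The change of Zap70 from rTreg to aTreg cells differed between old and young mice by −0.64 on the log2 scale (limma interaction, adjusted p = 0.028), with 0.54 in young and −0.10 in old mice.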

How the results depend on the processing

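The alternatives were a pseudocount of 0.5 or 5, a filter at 50 or none, only the groups compared, TMM scaling and scaling to library totals, edgeR, DESeq2, other call rules, each library left out in turn, the libraries young kTreg of mouse 4 and old aTreg of mouse 2 left out together and, added after the data were seen, young mouse 2 left out and the length index as a covariate. At an adjusted p alone, 2 members were called between kTreg and aTreg cells, 4 between kTreg and rTreg, 2 between aTreg and rTreg and 1 (Zap70) between old and young rTreg cells. At an unadjusted p with the fold, 1 (Plcg1) was called between old and young rTreg cells and 2 (Zap70 and Plcg1) in the interaction of age with aTreg against rTreg. At an adjusted p with the fold, the rule used in the fits that follow, these 2 counts were 0 and 1. Without single libraries the former count under this rule ranged from 0 to 1, and the latter from 0 to 1. In the former, Zap70 was called without young rTreg of mouse 2 or 4 or old rTreg of mouse 2, and Plcg1 without old rTreg of mouse 1. Without young mouse 2, Zap70 alone was called between old and young rTreg cells, a count of 1. The difference of Cd3d between kTreg and rTreg cells reversed from −0.10 to 0.18 with the length index as a covariate. With the mouse as a replicate block (consensus correlation 0.062), counts of members called stayed at 0 between subsets and at 1 (Zap70) in that interaction. Lcp2 in kTreg against rTreg cells passed in 16 of 39 alternatives and was lost with TMM scaling and with edgeR (adjusted p = 0.071). Without strand information reads of overlapping antisense genes cannot be told apart.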
